A study of Mus musculus with 73 samples.

Results

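HNF6 is a cut-homeodomain transcription factor of hepatocytes and bile duct cells, and 2464 regions of mouse liver chromatin that it occupied in 2 control livers, with no peak called in another control, are described here. The peaks of control lists 1 and 2 were merged into 6848 regions. A region was kept when a peak of both lists overlapped it and no peak of control list 3 did. These 2464 weaker regions are set beside the 1077 regions, called reproducible here, that had a peak in all 3 control lists. The other merged regions came from only 1 of the first 2 lists, 3070 of them without and 237 with a peak of control list 3. The membership therefore rests on peak calls in controls, and the 4 lists from livers without Foxa1 and Foxa2 took no part in it.

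Controls were 8-week-old mice with loxP-flanked alleles of both genes (Foxa1L/L;2L/L) and no Cre. Developmental nulls, also 8 weeks old, carried in addition the transgene Alfp Cre, in which albumin and alpha-fetoprotein control elements drive Cre in the liver from fetal life, so that deletion precedes the maturation of hepatocytes. Adult nulls had received, at 8 weeks of age, an AAV8 virus with Cre under the hepatocyte-specific Tbg promoter, 1 month before sampling. That promoter limits Cre to hepatocytes, so other liver cells keep both genes. HNF6 was mapped by ChIP-seq of liver, with 3 libraries of controls and 2 of each kind of null. Whole-genome bisulfite sequencing (WGBS) of isolated hepatocytes covered 2 libraries of each of the same genotypes. In these HNF6 and WGBS libraries no virus is named for controls or developmental nulls, which were 8 weeks old. Adult loss therefore cannot be told apart there from the virus and from the age at sampling. Reduced-representation bisulfite sequencing (RRBS) covered 27 libraries. Of these, developmental nulls and controls gave 1 library per age, 20 days, 8 weeks, 4 months or 6 months. Triple nulls, which lost Foxa1 and Foxa2 after Cre induction in mice that also lacked Foxa3, were sampled 7 days later at 9 weeks of age (n = 3) and 13 days later at 12 weeks of age (n = 2), beside Foxa3-/- controls given GFP (n = 3 and 2). Adult double nulls (n = 3) and GFP controls (n = 2) were also taken at 12 weeks of age after partial hepatectomy, the surgical removal of liver lobes that the remaining tissue replaces. The remaining RRBS libraries came from 8-week-old mice with FoxA1L/L;FoxA2L/+ (n = 2) or FoxA1L/+;FoxA2L/+ (n = 2) alleles, depleted in development. No expression data were analysed here, so neither the loss of the deleted genes nor the liver identity of the samples could be checked by markers. Nothing in the labels says which replicates shared a litter or a preparation day, so p-values measure the spread between these samples, which may be partly technical.

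FoxA proteins are forkhead factors that can bind DNA wrapped on nucleosomes, and in liver they occupy many of the enhancers that HNF6, HNF4A and other hepatocyte factors use. Enhancers occupied by such factors usually carry little CpG methylation, while CpGs elsewhere in the genome are mostly methylated. A FoxA site below is one of the 400 bp intervals for which the authors deposited WGBS levels, all of them on autosomes. All coordinates are in mm9.

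The weaker regions had lower enrichment in the 2 lists that define them than the reproducible regions had. Fold enrichment, the height of a peak over local background as the authors' peak caller gave it, had a median of 9.63 in control list 1 and 8.01 in control list 2 for weaker regions, against 15.4 and 11.7 for reproducible ones. The spread was wide, from 1.68 to 34.2 in control list 1 and from 1.79 to 28.4 in control list 2. The name weaker is relative to the reproducible regions. The medians of weaker regions exceeded those of all peaks in control lists 1 and 2, which were 8.10 and 7.59. On autosomes the smaller of the 2 folds had a median of 7.52 in weaker and 13.2 in reproducible regions. On chromosome X that order turned, with 4.78 in weaker and 4.58 in reproducible regions. Across the 2464 members the folds of the 2 control lists had a Spearman correlation of 0.50, a description over regions called from the same 2 libraries. Weaker regions were also narrower, with a median width of 166 bp (range 101 to 564) against 211 bp. Summits of control peaks in the same region lay a median of 13 bp apart.

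Control list 3, whose lack of a peak defines the set, was itself short. It held 1770 peaks with a median width of 84 bp, against 5767 peaks of 150 bp and 4652 peaks of 131 bp in the other 2 control lists. Its fragment length, as modelled by the caller, was 53 bp against 101 and 87 bp, although its 30469386 retained ChIP tags exceeded their 27470593 and 20916488. Peaks on the sex chromosomes made up 45.5% of control list 3, 13.9% and 16.9% of the other control lists, 55.9% and 45.0% of the developmental null lists, and 16.2% and 8.51% of the adult null lists. All 4 null libraries also had short modelled fragments, of 56 and 52 bp in developmental and 53 and 66 bp in adult nulls. How far these features of the libraries set the membership was not tested. Just outside the rule lay chr2:12351519-12351683, chr6:97232518-97232689 and chrX:157730096-157730252, where control list 3 had peaks with a fold of 4.29. Just inside were chrX:120571284-120571455, chrX:4282204-4282386 and chrX:121638646-121638780, with a list 3 peak 31, 66 and 72 bp away. Such neighbours were rare, as 100 weaker regions (4.06%) had a list 3 peak within 1000 bp.

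The 5 weaker regions with the highest control enrichment showed how far a member could depart from the word weak. At chr1:12634805-12634975 the fold was 24.6 and 24.8 in control lists 1 and 2, 33.0 and 32.9 in the developmental nulls, and 32.7 and 37.4 in the adult nulls. This region thus had strong peaks in 6 lists and none in control list 3. At chr3:54564670-54564879 the folds were 22.9 and 25.3 in controls, 5.18 in developmental null 1, absent in developmental null 2, and 17.5 and 41.5 in adult nulls. The third, chr5:138115998-138116223, overlapped 2 FoxA sites and had folds of 21.6 and 23.8 in controls, 10.4 and 13.7 in developmental nulls and 19.4 and 25.4 in adult nulls. At chr6:149138383-149138584 controls had 22.0 and 21.3, developmental null 2 had 5.72, developmental null 1 had no peak, and the adult nulls had 42.9 and 28.5. The last, chr2:130754721-130754947, had 20.7 and 26.9 in controls, no peak in either developmental null and 22.5 and 12.0 in the adult nulls. All 5 had peaks in both adult null lists, and 2 of them had peaks in both developmental null lists. Folds of the adult lists come from another caller version and cannot be set against the others by size.

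In livers that lost Foxa1 and Foxa2 during development, few weaker regions had an HNF6 peak, while in livers that lost them in adulthood most did. Developmental null 1 had a peak at 424 of the 2464 regions, or 17.2% (Wilson 95% interval 15.8 to 18.7), and developmental null 2 at 194, or 7.87% (6.87 to 9.00). Adult null 1 had a peak at 1610, or 65.3% (63.4 to 67.2), and adult null 2 at 2011, or 81.6% (80.0 to 83.1). Intervals cover counting error only. Over all 6848 merged regions the same lists had peaks at 21.6%, 12.5%, 49.5% and 61.8%. Weaker regions lay below these shares in both developmental nulls and above them in both adult nulls. That background includes the regions with a list 3 peak, which the rule left out. The 3070 regions of 1 control list without such a peak had 8.14%, 3.36%, 22.5% and 38.8%, below the weaker regions in every list. The mean share was 12.5% in developmental and 73.5% in adult nulls, which is -60.9 points for developmental minus adult nulls, with no overlap of the groups (two-sided exact permutation p = 0.333; 2 libraries against 2 can give no smaller p). Control list 3, from a liver with both genes, has no peak at weaker regions by the rule. It had a peak at 1077 of the 3541 regions of both control lists 1 and 2. Over those 3541 regions developmental nulls had 30.5% and 19.2% and adult nulls 72.7% and 83.3%. How far the features that control list 3 shares with the developmental null lists set these shares was not tested.

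The gap was smaller when lists of equal length were compared. Adult null lists held 4028 and 5678 peaks called with MACS 1.4.3, with median widths of 307 and 320 bp, and developmental null lists 3122 and 1188 peaks called with MACS 2.1.1, with median widths of 87.5 and 82 bp. With only the 1188 best ranked peaks of each list, the share was 6.45% in developmental and 21.7% in adult nulls, a difference of -15.2 points. As each kind of null had its own caller version, genotype and caller cannot be told apart. With the null peak's summit required to lie inside the region, the shares were 12.4% and 69.7%. At weaker regions the median distance from null summit to region midpoint was 18 and 18.5 bp in developmental nulls 1 and 2. It was 26 and 21 bp in adult nulls 1 and 2.

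**Figure D1:**
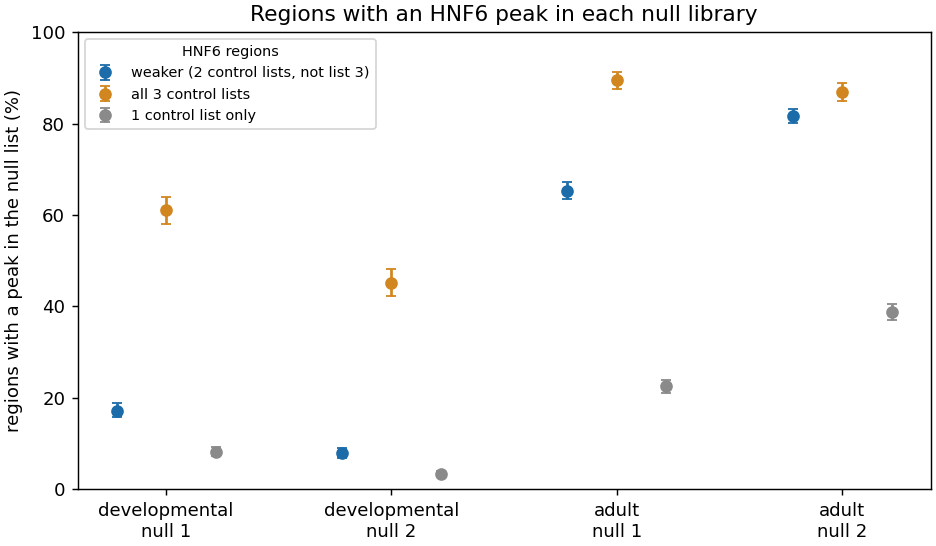
Share of HNF6 regions (y axis, %) with a peak in each of the 4 null lists (x axis), for weaker regions, regions of all 3 control lists and regions of 1 control list without a list 3 peak. Points are shares and bars Wilson 95% intervals; weaker regions lie at 17.2% and 7.87% in developmental nulls and at 65.3% and 81.6% in adult nulls, between the other classes in every list.

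Overlap within each kind of null is given as a share of each list, beside the share of all weaker regions in the other list. Both adult lists had a peak at 1517 regions, which is 94.2% of those of adult null 1, against 81.6% of all weaker regions in adult null 2, and 75.4% of those of adult null 2, against 65.3% in adult null 1. Both developmental lists had a peak at 110 regions, which is 25.9% of those of developmental null 1, against 7.87% of all in developmental null 2, and 56.7% of those of developmental null 2, against 17.2% in developmental null 1. The commonest outcome was a peak in both adult lists and in neither developmental list, at 1117 regions (45.3%), against 25.9% of reproducible regions. A further 444 regions (18.0%) had a peak in adult null 2 alone and 317 (12.9%) in no null list. Reproducible regions had 2.23% and 2.32%. Only 82 regions (3.33%) had a peak in all 4 null lists, against 346 of the 1077 reproducible regions (32.1%). Shares over all merged regions were not computed for these outcomes. How far each list's own share sets them was not tested. The regions in all 4 lists had a median lower control fold, the smaller of the 2 control folds, of 11.7. It was 7.62 for those in both adult lists only and 6.21 for those in no null list.

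Examples of each outcome were taken by highest lower control fold. Beside the regions of chromosomes 1 and 5 named above, chr19:41420896-41421089 was in all 4 null lists, with 19.5 and 24.9 in controls, 6.49 and 6.50 in developmental nulls and 12.3 and 25.6 in adult nulls. So was chr16:26706087-26706326, which overlapped a FoxA site, with 19.2 and 22.8 in controls, 9.32 and 7.77 in developmental nulls and 22.5 and 37.4 in adult nulls. At chr10:111045492-111045693, also with a FoxA site, the corresponding folds were 23.0 and 18.8, 6.66 and 4.46, and 24.2 and 28.0. In these 3 regions and that of chromosome 5 both developmental folds lay below both control folds, while in the one of chromosome 1 they lay above. Selection by high control fold favours the former order. Peaks in both adult lists and neither developmental list stood at chr17:31581275-31581479 (21.5 and 19.5 in controls, 24.2 and 19.8 in adult nulls), chr3:146259949-146260175 (24.2 and 19.3, then 45.0 and 29.4), chr4:22864178-22864386 (24.6 and 18.8, then 30.7 and 18.7) and chr16:45990577-45990781 (18.4 and 20.8, then 28.6 and 9.35). None of these 4 overlapped a FoxA site.

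The regions that had no peak in any null list reached lower control folds. The strongest was chr6:17442226-17442396, with folds of 13.8 and 13.7 in control lists 1 and 2 and 3 overlapping FoxA sites. It was followed by chr1:133841944-133842107 with 13.1 and 14.1, and chr6:56870312-56870498 with 12.7 and 12.7 and 3 FoxA sites. The next, chr4:148461917-148462069 and chr12:58500402-58500574, had 11.8 and 12.6, and 11.2 and 17.7. The reverse outcome, a peak in both developmental lists and in neither adult list, occurred at 9 regions (0.365%), of which 8 were on chromosome X. The autosomal one, chr7:105208497-105208634, had folds of 8.12 and 10.9 in controls and 19.6 and 11.9 in developmental nulls. The strongest of the 8 was chrX:121082229-121082390, with 8.39 and 6.24 in controls and 9.42 and 6.55 in developmental nulls. Among the 1077 reproducible regions 20 (1.86%) had this reverse outcome, 16 of them on chromosome X.

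Weaker regions had fewer peaks than reproducible regions in every null library. Reproducible regions had a peak at 61.0%, 45.2%, 89.5% and 87.0% in developmental nulls 1 and 2 and adult nulls 1 and 2. The differences were -43.8, -37.3, -24.2 and -5.39 points, lower in 4 of 4 libraries, with a mean of -27.7 points (exact permutation of signs over 4 libraries, p = 0.125, two-sided, the smallest possible). On autosomes alone the differences were -37.1, -33.3, -28.4 and -13.3 points. Reproducible regions were richer in chromosome X, which held 22.0% of them against 4.99% of the weaker regions.

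Above a lower control fold of 6, shares were higher in each bin of higher control enrichment up to 20 in all 4 null lists. The 36 autosomal regions with a lower control fold up to 4 departed from that order. Those 36 had peaks at 13.9%, 5.56%, 75% and 88.9% in developmental nulls 1 and 2 and adult nulls 1 and 2, above the 424 regions between 4 and 6, with 7.08%, 3.30%, 51.2% and 71.9%. Among the 2334 autosomal weaker regions, 888 had a lower control fold above 6 and up to 8, and of these 7.88%, 2.48%, 57.4% and 79.2% had a peak in developmental nulls 1 and 2 and adult nulls 1 and 2. The 445 regions above 10 and up to 15 had 30.1%, 14.2%, 87.9% and 96.0%. The 77 above 15 and up to 20 had 54.5%, 37.7%, 100% and 100%, and of the 6 above 20, 3, 4, 6 and 6 had one. Reproducible regions of like enrichment had higher shares in most bins. In the bin above 10 and up to 15 they had 45.2%, 30.3%, 95.9% and 96.6% (n = 294) in the 4 lists in the same order. In the bin above 6 and up to 8 they had 16.7%, 13.0%, 79.6% and 96.3% (n = 54), and in that above 8 and up to 10 they had 34.2%, 19.8%, 91.9% and 97.3% (n = 111), against 16.2%, 6.33%, 72.1% and 88.2% of 458 weaker regions. The 2 classes were closest in adult nulls above a fold of 15, where nearly every region had a peak. These shares are of regions within single libraries and were not tested. Between the lists, the lower control fold of autosomal regions with a peak correlated with the null fold at a Spearman rho of 0.09 and 0.10 in developmental nulls (n = 358 and 163) and 0.34 and 0.38 in adult nulls (n = 1558 and 1954). These are descriptions over regions, truncated by each caller's threshold.

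**Figure D2:**
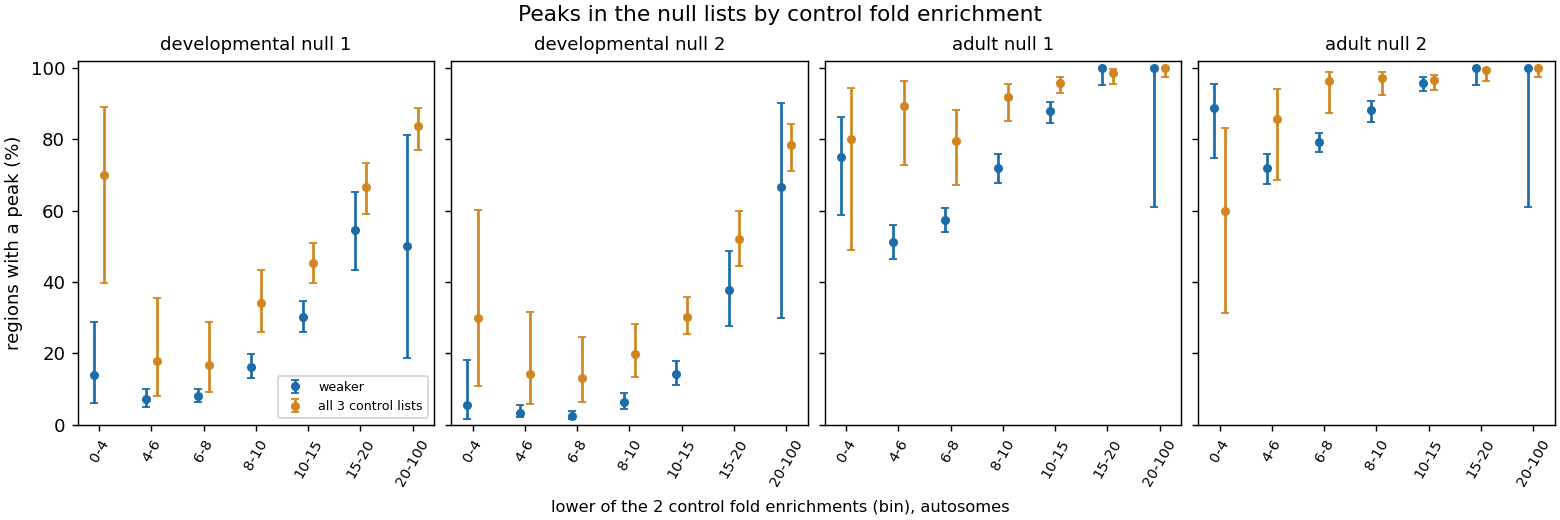
Share of autosomal regions with a peak in each null list (y axis, %) by the lower of the 2 control fold enrichments (x axis, bins), for weaker regions and regions of all 3 control lists, with Wilson 95% intervals. From the bin 6-8 to the bin 15-20 the weaker regions go from 7.88% to 54.5% in developmental null 1 and from 57.4% to 100% in adult null 1.

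A FoxA site overlapped 914 weaker regions (37.1%), and the sign of their difference from the other weaker regions in HNF6 peaks depended on the null list. The regions with a FoxA site had a peak in 15.3% and 5.69% of cases in developmental nulls and 67.5% and 84.2% in adult nulls. The 1550 regions without one had 18.3% and 9.16%, and 64.1% and 80.1%. The differences of -3.01, -3.47, 3.44 and 4.18 points had opposite signs in the 2 null groups and averaged 0.286 points (exact permutation of signs over 4 libraries, p = 0.875). FoxA sites of the deposited table were all autosomal, so the sex chromosomes could enter only the group without one. On autosomes the 914 regions stood against 1420 with 15.4% and 7.82%, and 66.3% and 83.4%, and the mean difference was -0.0149 points. From library to library the autosomal difference ran from -2.13 to 1.24 points. Within 4 bins of the lower control fold on autosomes, of near equal size, regions with a FoxA site had the lower share in developmental null 2 in all 4 bins, at 1.97% against 4.72%, 0.985% against 2.89%, 1.91% against 6.38% and 16.7% against 19.1% from the lowest bin up. In the other 3 lists the sign varied between bins. Folds in controls were similar, with a median lower control fold of 7.67 with and 7.26 without a FoxA site on autosomes.

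Among autosomal weaker regions that overlapped no FoxA site, the share in adult null 1 was lower in each more distant class. It was 74.7% of the 87 regions with a gap of 1 to 200 bp, then 69.4%, 69.1% and 65.3% with gaps up to 1000, 5000 and 20000 bp, and 61.9% of the 431 beyond. The 914 overlapping regions did not continue that order, at 67.5%, and the other lists did not follow it. Adult null 2 had 86.2%, 83.2%, 86.4%, 82.5% and 81.2% in the same 5 classes, and developmental null 1 had 18.4%, 15.6%, 11.8%, 14.1% and 18.6%. No test was made over these classes. On autosomes 39.2% of weaker regions overlapped a FoxA site, 49.5% of reproducible regions and 26.8% of those of 1 control list, and control enrichment differed between these classes in the same order. Of the weaker regions with most FoxA sites, chr4:57071279-57071530 overlapped 5 and had a lower control fold of 8.05, no peak in developmental nulls and folds of 22.0 and 38.1 in adult nulls. Its match in number, chr5:112731291-112731423, had 4.97 and 4.63 in controls and a single null peak, of 10.1 in adult null 2. Of 3 regions with 4 sites, chr1:107805181-107805364 had a peak in developmental null 1 (8.66) and both adult nulls (22.4 and 25.8). The other 2, chr1:80424648-80424773 and chr11:16642391-16642566, had no peak in either developmental null.

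**Figure D3:**
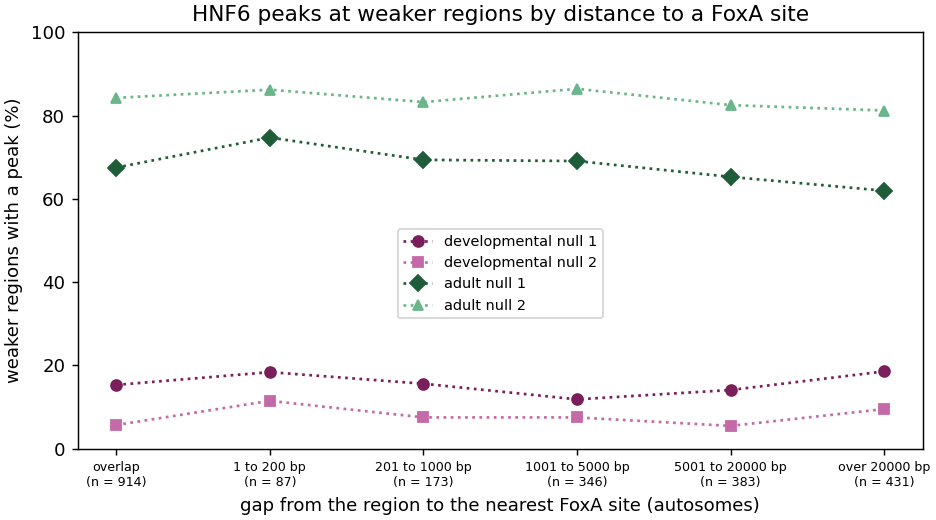
Share of autosomal weaker regions with a peak in each null list (y axis, %) by the gap between the region and the nearest FoxA site (x axis, with the number of regions). Adult nulls stay between 61.9% and 86.4% and developmental nulls between 5.48% and 18.6% in every distance class.

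On chromosome X the shares of the 2 null groups overlapped, unlike on autosomes. Of its 123 weaker regions, 50.4% and 25.2% had a peak in developmental nulls 1 and 2 and 39.0% and 46.3% in adult nulls 1 and 2, against 15.3%, 6.98%, 66.8% and 83.7% on autosomes. The null groups also overlapped at reproducible regions of chromosome X, with 84.4%, 58.6%, 72.6% and 64.1% in the same order. Between 120 and 123 Mb lay 73 of the 123 weaker regions, none with a FoxA site and with a median lower control fold of 4.33. There 50 and 24 had a peak in developmental nulls and 25 and 26 in adult nulls. The same stretch held 209 reproducible regions. Chromosome X also held the widest weaker region, chrX:4794981-4795544 of 564 bp, with folds of 4.53 and 4.16 in controls, 5.55 in developmental null 2 and 5.80 in adult null 2. The widest autosomal one, chr16:24043855-24044370 of 516 bp, had 8.46 and 11.1 in controls, 5.18 in developmental null 1 and 19.7 and 16.1 in adult nulls. On chromosome 4, between 60 and 62 Mb, a cluster of 29 weaker regions without a FoxA site had peaks at 14 and 10 in developmental nulls and at 24 in each adult null. Whether reads of repeated sequence took part in these clusters was not tested.

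WGBS levels at FoxA sites inside weaker regions were low in controls, and their mean differed less between developmental nulls and controls than that of FoxA sites as a whole. The 1350 sites in the 914 regions had mean levels of 11.3% and 13.8% in controls and 14.0% and 13.7% in developmental nulls, so that 1 null lay below 1 control. Developmental nulls averaged 13.9% ± 0.149 (SD, 2 libraries) and controls 12.5% ± 1.81 (2 libraries), 1.30 points apart (exact permutation p = 0.667, smallest possible 0.333). The 51 sites on the authors' list of hyper-methylated sites differed by 34.6 points and the other 1299 by -0.00395 points. Without control 1 the difference over all 1350 was 0.0202 points, and without control 2 it was 2.58 points. Over all 33302 sites the difference was 4.16 points, from 21.5% ± 1.27 to 25.6% ± 0.0516. At the 29700 sites under no HNF6 peak of any list it was 4.49 points, and at the 675 sites of reproducible regions 0.691 points. Control levels of 5 to 10% were the commonest at weaker regions, with 40.8% of sites against 25.1% of all sites, and 6.00% of sites lay above 40% against 18.7%. That bin was also the commonest over all sites and at reproducible regions, where it held 44.4%, with 3.11% above 40%. The number of reads behind each level is unknown.

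By limma with Benjamini-Hochberg adjustment over all 33302 sites, 26 of the 1350 sites (1.93%) rose and 4 (0.296%) fell in developmental nulls. Over all sites 4.17% rose and 0.246% fell. Leaving out any 1 of the 4 libraries left 0 sites past the threshold, with 195 of the 1350 (14.4%) at an unadjusted p under 0.05 in the full fit, against 19.9% of all sites. At chr13:97729963-97730362 the level was 7.14% and 19.4% in controls and 83.3% and 90.9% in developmental nulls, a rise of 73.8 points (SE 5.89, limma adjusted p = 0.0133). Adult nulls had 35.5% and 29.0% there. At chr10:122573393-122573792 controls had 19.5% and 4.00%, developmental nulls 68.7% and 85.5% and adult nulls 11.3% and 21.5%. At chr8:37251080-37251479 the values were 13.8% and 1.44%, 61.3% and 84.1%, and 5.60% and 6.15%. The other named rises, chr1:5264748-5265147 and chr15:8273888-8274287, measured 59.7 and 55.7 points. These 5 were chosen as the largest rises, which also places them on the authors' list, so their direction and their listing are no further result.

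At all 4 falling sites both developmental nulls lay below both controls. The sites were chosen by a limma fall in these same libraries, so this order is no further result. At chr14:99128756-99129155 controls had 73.8% and 73.2%, developmental nulls 7.69% and 26.2% (limma adjusted p = 0.0200) and adult nulls 80.0% and 36.2%. At chr12:28957931-28958330 controls had 51.7% and 44.8%, developmental nulls 1.72% and 1.64% (adjusted p = 0.0160) and adult nulls 20.6% and 4.29%. At chr7:139811694-139812093 the level fell by 36.1 points (SE 4.58, adjusted p = 0.0213). At chr3:18328981-18329380 both developmental nulls were listed at 0, against 23.7% and 33.3% in controls (adjusted p = 0.0383). With replicate number as a block this last site had a limma adjusted p of 0.0562.

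The methylation difference varied with the HNF6 peaks of the region. At the 164 sites of weaker regions with a peak in no null list, developmental nulls had 18.9% and 18.8% against 11.9% and 14.4% in controls, a difference of 5.73 points with no overlap. At the 647 sites of regions with a peak in both adult and neither developmental list the levels were 13.0% and 12.5% against 11.1% and 13.6%, a difference of 0.387 points. At the 41 sites of regions in all 4 null lists they were 6.90% and 7.21% against 6.54% and 8.42%, a difference of -0.422 points. The classes come from ChIP of other livers, and were compared after the values had been seen, so no test is given. Control fold moved with these classes too, from 11.7 in regions of all 4 lists to 6.21 in those of none.

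The authors' list of hyper-methylated sites touched 42 weaker regions at 51 sites, and these had fewer HNF6 peaks. Every site of that list, and no other, had a mean level in developmental nulls more than 20 points above controls, so their methylation is not a result here. Developmental nulls 1 and 2 had a peak at 2 and 0 of the 42 regions, and adult nulls 1 and 2 at 15 and 25. A count of 0 of 42 allows a share of up to 7.14%, the limit set by 3 counts. The other 872 weaker regions with a FoxA site had shares of 15.8%, 5.96%, 69.0% and 85.4%, against 4.76%, 0%, 35.7% and 59.5% in the 42. The share of regions in no null list was 33.3% of the 42 and 11.2% of the 872, while median lower control folds were 7.59 and 7.68. The 42 had the lower share in 4 of 4 libraries, by a mean of -19.1 points (exact permutation of signs over 4 libraries, p = 0.125, the smallest that 4 libraries allow), in a comparison added after the values were seen.

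Adult nulls had lower WGBS levels than controls at these sites. Over the 1138 sites in both deposited tables, which hold no adult level for chromosomes 1 and 2, adult nulls averaged 9.85% ± 0.179 (2 libraries) and controls 12.5% ± 1.83 (2 libraries). Adult minus control was -2.69 points with no overlap (exact permutation p = 0.333; no smaller p can be had). Over all 28654 common sites it was -1.42 points and at sites of reproducible regions -2.70 points. Limma called 0 of the 1138 sites higher and 0 lower, with 150 (13.2%) at an unadjusted p under 0.05 against 8.02% of all sites, and the background over all sites was 0% in both directions. At sites of weaker regions in no null list, adult nulls had 11.7% ± 0.169 and controls 13.4% ± 1.77.

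**Figure D4:**
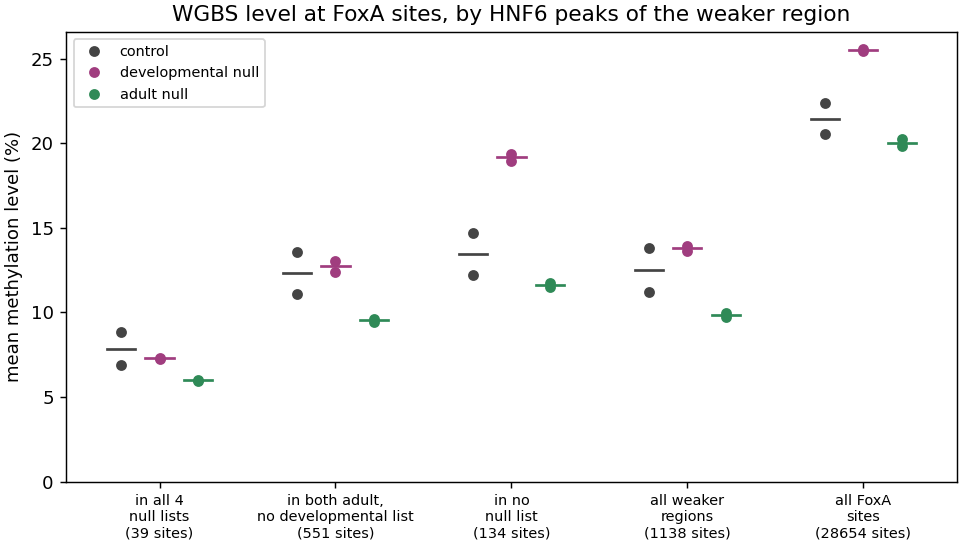
Mean WGBS level per library (y axis, %) at FoxA sites present in both tables, for weaker regions grouped by their HNF6 peaks, for all weaker regions and for all FoxA sites (x axis). Points are libraries and lines group means; the developmental nulls stand above both controls at regions in no null list (19.2% against 13.4% on average), and adult nulls lie below both controls in every group shown.

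RRBS tiles, 100 bp windows rich in CpGs, reached 377 positions in 227 weaker regions. In the age series the 180 tiles with a level in all 8 libraries did not separate the genotypes. The 20-day control had 12.7% and the 20-day null 11.6%. At 8 weeks the levels were 8.59% and 7.96%, at 4 months 6.49% and 6.69%, and at 6 months 5.90% and 6.48%, control first. In both genotypes the 20-day library was the highest. Nulls averaged 8.19% ± 2.39 and controls 8.42% ± 3.08 (4 libraries each), so nulls minus controls was -0.231 points (exact permutation p = 0.857). This sign turned without the 20-day control, the 4-month null or the 6-month null, to 1.19, 0.269 and 0.339 points. At 5564 tiles of FoxA sites under no HNF6 peak it was 1.46 points (exact permutation p = 0.286, n = 4 and 4). Limma, adjusted over 369462 tiles, called 0 tiles of weaker regions higher (0.176% of all tiles) and 1 lower (0.556%, against 0.0625% of all tiles), with 10 (5.56%) at an unadjusted p under 0.05 against 8.77% of all tiles. That tile, chr14:55711101-55711200, was at 0 in all 4 nulls and at 2.70%, 2.78%, 6.90% and 4.76% in controls, from the youngest to the oldest (adjusted p = 0.0251).

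Triple nulls had lower levels at weaker regions than Foxa3-/- controls at both times after Cre. At 7 days the 3 nulls had 4.49%, 3.45% and 4.77% over 210 tiles and the 3 controls 6.90%, 6.55% and 7.01%, with no overlap. Nulls averaged 4.24% ± 0.694 and controls 6.82% ± 0.238 (3 libraries each), so nulls minus controls was -2.58 points (exact permutation p = 0.1; no smaller p can be had). At 13 days the nulls had 3.92% and 3.60% over 238 tiles and the controls 7.25% and 5.66%, and nulls minus controls was -2.70 points (exact permutation p = 0.333; 2 against 2 can give no smaller p). Tiles of reproducible regions had differences of -3.19 and -3.33 points at the same times, further from 0 than those of weaker regions. At tiles of FoxA sites under no HNF6 peak the differences were -1.17 and -0.977 points. At tiles over 2000 bp from any FoxA site or HNF6 peak with a mean level under 20% they were -0.208 and -0.259 points, from control means of 2.72% and 2.79%. Over all tiles tested the differences were 0.227 and -0.187 points, from control means of 58.8% and 58.3%. Tiles of weaker regions with a FoxA site differed by -3.86 points at 7 days and those without by -1.99, and at 13 days by -2.57 and -2.76. Limma called 0 tiles of weaker regions at either time, with 17 of 210 (8.10%) and 12 of 238 (5.04%) at an unadjusted p under 0.05, against 4.10% and 4.68% of all tiles. Over all tiles it called 0.00125% higher and 0.00291% lower at 7 days and 0.00271% and 0.00475% at 13 days.

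After partial hepatectomy the genotypes overlapped at weaker regions. Adult double nulls had 7.75%, 8.14% and 8.97% over 231 tiles and controls 8.18% and 6.84%, and nulls minus controls was 0.780 points (exact permutation p = 0.5, n = 3 and 2). Limma called 0 of these tiles, with 19 (8.23%) at an unadjusted p under 0.05 against 4.67% of all tiles. Over all tiles it called 0.00104% higher and 0.000828% lower. Without control 1 the difference was 1.45 points and without control 2 it was 0.111 points.

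**Figure D5:**
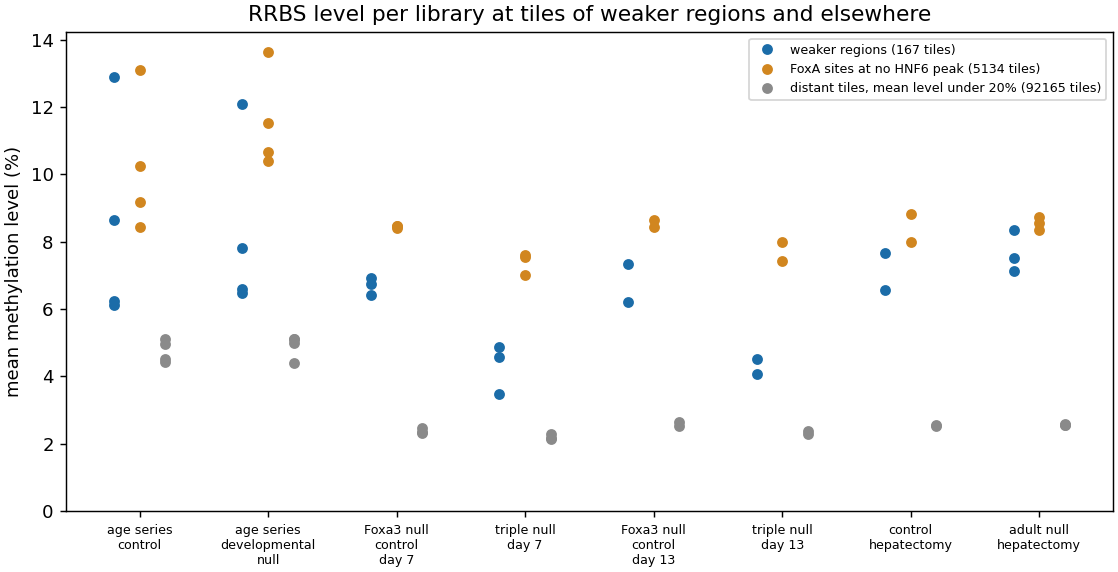
Mean RRBS level per library (y axis, %) at tiles measured in all 27 libraries, by group (x axis), for weaker regions, FoxA sites under no HNF6 peak and distant tiles with a mean level under 20%. Each point is a library, and 8 of the 10 RRBS groups are shown; at weaker regions the 5 triple nulls lie between 3.48% and 4.88% and their 5 controls between 6.20% and 7.34%, while the 20-day libraries are the highest of the age series.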

How the data were processed

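HNF6 peaks were called by the authors per library, with MACS 2.1.1 at a q-value of 0.05 for control and developmental null lists and MACS 1.4.3 at a p-value of 1e-05 for adult null lists, per the file headers. The deposited peak lists give fold enrichment (a ratio), pileup (a signal), and −log10 p and q; the adult lists, as deposited, give fold enrichment with tag counts, a score of 10 times −log10 p and a false discovery rate in percent. RRBS and WGBS levels were deposited by the authors as fractions and are printed in percent. Trim Galore 0.3.3 and BSMAP 2.74 are named for bisulfite reads, and mm9 throughout, per the submitters' processing notes. Regions, overlaps (minimum 1 bp) and Wilson intervals were computed in Python. Differences in levels were tested with limma 3.58.1 on percent values with a variance trend, over every site or tile with a level in each library compared, at an adjusted p of 0.05. Group means were compared by two-sided exact permutation over libraries. The adult WGBS column headed as developmental null 1 equalled control 2 of the other table at 100% of common sites, so controls were taken from the developmental table. Scripts were tested on simulated data. Regions named were, outside chromosome 18, those of highest lower control fold per outcome, the 5 with most FoxA sites and the 3 widest. WGBS sites named were, with the same exclusion, the 5 largest limma rises and all 4 limma falls. Members and lists were chosen with earlier results of these data known. Replicate numbers did not pair the WGBS libraries, whose same-numbered deviations correlated at -0.00444 and 0.00818.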

Additional observations from a re-analysis of the deposited data

Results flagged for a closer look

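At FoxA sites of weaker regions the 2 kinds of double null lay on opposite sides of the control mean. Over the 1138 sites in both WGBS tables, developmental nulls 1 and 2 were 1.38 and 1.13 points above it and adult nulls 1 and 2 stood at -2.82 and -2.56 points from it. The developmental mean exceeded the adult mean by 3.94 points (exact permutation p = 0.333; 2 against 2 can give no smaller p). The 2 differences share their control libraries, and the higher control, at 13.8%, lay between developmental nulls 2 and 1, at 13.7% and 13.9%. The 45 sites on the authors' list of hyper-methylated sites, which were chosen for a rise in developmental nulls, differed by 35.0 points there. At the other 1093 sites developmental minus control was -0.133 points and adult minus control -2.76 points.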

How the results depend on the processing

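HNF6 results kept their direction under all alternatives for the contrasts of null groups and of region classes. The gap between developmental and adult nulls ran from -69.1 to -52.8 points with a null list left out. Leaving out a control list changes which regions are members, and the gap then ran from -53.1 to -46.8 points. Without control list 3 the set takes in the reproducible regions. Control peaks above the median fold of both lists, also another set of regions, gave -68.8 points. With the 1188 top peaks of each null list, 1640 weaker regions had no null peak and 226 had peaks in both adult lists only. The gap between weaker and reproducible regions ran from -35.1 to -22.3 points with 1 null library left out. The difference between regions with and without a FoxA site reversed with top-ranked peaks (-0.728 points), on autosomes (-0.0149 points), and without adult null 1 (-0.766) or 2 (-1.01), ranging from -1.01 to 1.54 when 1 library was left out; the cause was not tested. Autosomes and summit overlap were chosen after seeing the data.

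In the WGBS comparison of developmental nulls, sites called higher numbered 62 at mean levels of 5 to 95% and 42 with both tables joined, and sites called lower 8 on the logit scale, 14 at mean levels of 5 to 95% and 15 with both tables joined. With 1 library left out these counts ranged from 0 to 0, with fewer residual degrees of freedom, and the mean difference from 0.0202 points without control 1 to 2.58 without control 2. In adults the difference ran from -3.99 to -1.39 points with 1 library left out, the extremes again without a control.

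In the age series the RRBS difference reversed within 200 bp of the region (0.790 points), without the 20-day control (1.19), the 4-month null (0.269) or the 6-month null (0.339), a range of -1.38 to 1.19; the cause was not tested. Tiles called higher numbered 1 within 200 bp and 0 to 1 with a library left out (1 without the 20-day control). Tiles called lower numbered 0 at mean levels of 5 to 95%, 2 with a block by age, and 0 to 1 with a library left out (0 without the 6-month control). Leaving out a library gave -2.85 to -2.19 points at 7 days, -3.49 to -1.90 at 13 days and 0.111 to 1.45 after hepatectomy, and 0 to 1 tiles called lower in each, the 1 arising without control 3, 2 and 1 in that order.

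With replicate number as a block, differences were -60.9 points for HNF6 between null groups, 1.30 and -2.69 for WGBS in developmental and adult nulls, and -0.231, -2.58, -2.70 and 0.437 for RRBS in the age series, at 7 and 13 days and after hepatectomy. The block by age rests on a shared age only; same-age deviations correlated at 0.366, 0.109, 0.149 and 0.0600, below 0.1 for 8 weeks. Numbers did not pair the other libraries, and among named sites and tiles the block ended 1 call, that of the site on chromosome 3.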

Other observations

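The RRBS table also held 4 libraries of 8-week-old mice with partial deletion in development. Over the 167 tiles of weaker regions measured in all 27 libraries, those with FoxA1L/L;FoxA2L/+ alleles had mean levels of 6.66% and 5.61%, and those with FoxA1L/+;FoxA2L/+ alleles 4.72% and 6.04%. At the same tiles the 8-week control of the age series had 8.63% and the 8-week developmental null 7.80%, 1 library each. The age series also stood higher at distant tiles with a mean level under 20%, at 5.10% and 5.11% in that 8-week pair against 2.55% to 2.91% in the 4 libraries with partial deletion. Its part in the difference between these libraries was not tested.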
